A study of Homo sapiens with 10 samples.

Results

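H3K27ac, histone H3 acetylated at lysine 27, was followed in 5 megabase windows of the genome that are rich in gains after degradation of the PAX3-FOXO1 fusion. The windows (hg19) were chr14:105000000-106000000, chr17:17000000-18000000, chr2:241000000-242000000, chr9:92000000-93000000 and chr21:46000000-47000000. Their members were the peaks whose start lay inside, 345 of the 42067 peaks in the count table, with 90 on chromosome 14, 78 on chromosome 17, 63 on chromosome 2, 40 on chromosome 9 and 74 on chromosome 21. All 345 passed the filter on low counts. The cells were Rh30, an established alveolar rhabdomyosarcoma line, with PAX3-FOXO1 fused to FKBP, a degron through which the ligand dTAG47 sends the protein to the proteasome. Control cells received DMSO, the solvent. Treated cells received dTAG47 at 500 nM and were taken after 2 h, 4 h or 24 h. Each of these 4 groups has 2 ChIP-seq libraries, called A and B here, and all of them carry the tagged fusion. Nothing says whether A and B came from separate cultures, so p-values measure only the spread between these libraries, which may be technical.

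H3K27ac marks active promoters and enhancers. PAX3-FOXO1, the driver of most alveolar rhabdomyosarcomas, is known to bind enhancers and to recruit coactivators that acetylate histones there.

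The windows were selected on measured values. Which comparison chose them is not stated, but their rank points to 24 h against DMSO. Among 2653 bins of 1 Mb that held a peak, these 5 held the most peaks called higher at 24 h against DMSO (edgeR quasi-likelihood test, Benjamini-Hochberg adjusted p under 0.05 over all 41791 tested peaks). The numbers were 17, 16, 15, 12 and 11 in the order above, and the bin next in rank, on chromosome 17 from 80 Mb, held 10. Values and calls that involve DMSO or 24 h libraries are therefore a description: calls past the threshold are counted there, but no p-value is given and nothing is read as a test. The comparison of 4 h with 2 h uses neither and is the only one read as a test.

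The gene content of the windows is given as background, since the count table names no genes. On chromosome 14 lie AKT1, a kinase of growth factor signalling, JAG2, a Notch ligand, BRF1, a subunit of an RNA polymerase III initiation factor, and MTA1, a subunit of a chromatin remodelling and deacetylase complex. On chromosome 17 lie RAI1, a chromatin regulator whose loss causes Smith-Magenis syndrome, SREBF1, a transcription factor of lipid synthesis, and FLCN, the tumour suppressor folliculin. On chromosome 2 lie GPC1, a heparan sulfate proteoglycan of the cell surface, KIF1A, a motor of axonal transport, and SNED1, a protein of the extracellular matrix. On chromosome 9 lie SEMA4D, a semaphorin, and GADD45G, a stress response gene. On chromosome 21 lie COL18A1, the collagen from which endostatin is cut, ADARB1, an RNA editing enzyme, and SLC19A1, the reduced folate carrier.

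To show the base composition of start sites in the windows, 1 RefSeq promoter per window (GRCh38.p14) is printed, 250 bases up to the start of the gene, with CpG dinucleotides in capitals. Where several starts were listed, the most upstream one was taken. The peaks are on hg19, so no peak was matched to these promoters.
AKT1: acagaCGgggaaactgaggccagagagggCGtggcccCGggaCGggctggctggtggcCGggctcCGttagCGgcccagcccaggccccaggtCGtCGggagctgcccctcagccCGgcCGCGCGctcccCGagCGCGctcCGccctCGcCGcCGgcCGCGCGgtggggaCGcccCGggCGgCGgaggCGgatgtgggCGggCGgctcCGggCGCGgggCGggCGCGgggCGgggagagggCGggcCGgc
RAI1: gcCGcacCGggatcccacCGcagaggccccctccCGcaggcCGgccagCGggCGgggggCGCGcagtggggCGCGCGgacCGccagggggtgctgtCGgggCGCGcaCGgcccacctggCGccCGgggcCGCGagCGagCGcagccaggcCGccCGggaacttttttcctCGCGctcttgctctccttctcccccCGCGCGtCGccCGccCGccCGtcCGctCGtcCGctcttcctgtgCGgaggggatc
KIF1A: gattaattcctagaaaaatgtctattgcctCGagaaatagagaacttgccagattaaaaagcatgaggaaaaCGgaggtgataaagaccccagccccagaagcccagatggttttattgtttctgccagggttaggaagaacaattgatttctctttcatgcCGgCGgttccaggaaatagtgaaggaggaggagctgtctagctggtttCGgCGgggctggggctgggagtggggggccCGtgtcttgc
GADD45G: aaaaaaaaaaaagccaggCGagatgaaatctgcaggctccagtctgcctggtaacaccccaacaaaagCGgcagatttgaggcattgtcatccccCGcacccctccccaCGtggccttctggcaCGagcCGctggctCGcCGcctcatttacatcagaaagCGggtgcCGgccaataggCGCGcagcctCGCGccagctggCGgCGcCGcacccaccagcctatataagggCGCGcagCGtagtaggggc
COL18A1: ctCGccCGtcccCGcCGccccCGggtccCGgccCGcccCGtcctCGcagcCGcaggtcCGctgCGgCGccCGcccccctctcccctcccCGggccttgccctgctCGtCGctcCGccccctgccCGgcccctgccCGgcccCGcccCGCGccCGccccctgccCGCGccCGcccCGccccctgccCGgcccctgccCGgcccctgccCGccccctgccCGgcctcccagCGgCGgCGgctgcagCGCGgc
The AKT1, RAI1 and COL18A1 promoters held 39, 38 and 37 CpGs and the GADD45G promoter 20, against a median of 16 over 22199 promoters of protein-coding genes. This KIF1A start, the most upstream of 3, held 7. Protein-coding genes were counted in each window between the outermost genes placed there from general knowledge. Genes nearer the window edges may be missing, so the medians below hold for this list only. It holds 54 genes, from SIVA1 to CRIP1, FLCN to GID4, GPC1 to SNED1, SEMA4D to GADD45G and UBE2G2 to SLC19A1 in RefSeq table order. Of these, 50 had a promoter in the table, with a median of 28 CpGs in 300 bases, against 21.5 over 15843 protein-coding genes. Medians were 35 for chromosome 14, 26.5 for chromosome 17, 17 for chromosome 2 and 38.5 for chromosome 21. The chromosome 9 window holds only 2 of these genes.

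The windows were dense in peaks, and their peaks stood close together. A bin held a median of 11 peaks. Only 6 of the 2653 bins, the window included, held at least as many as the chromosome 14 window, 9 as many as that on chromosome 17, and 12 as many as that on chromosome 21. For chromosomes 2 and 9 these numbers were 45 and 220. Of the members, 85.2% lay within 12.5 kb of another peak, against 57.1% of all peaks, so neighbouring members can belong to one element and are not independent. Members were also stronger than most peaks, since 67% had a mean level above the median of tested peaks (13.7 CPM, counts scaled to library size with TMM factors). The share was 83.3% on chromosome 14 and 52.4% on chromosome 2. The part of peak number and level in the choice of the windows was not tested. Among tested peaks above the median level, 3.67% were called higher at 24 h overall and 25.5% in the windows. In the 215 other bins with at least 40 peaks the median bin had 2 peaks called higher, a median share of 3.33%, and the highest count was 10. Both comparisons count the 24 h calls in which the windows ranked highest, so no other bin could hold more. They are descriptive, and nothing is read from them about level or peak number. Some smaller bins outside the windows had shares as high as the windows. The bin on chromosome 15 from 31 Mb had 9 of 28 peaks called higher (32.1%), and that on chromosome 3 from 139 Mb 8 of 30 (26.7%).

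At 24 h, 71 of 345 members were higher than in DMSO and 8 were lower. Over all tested peaks 3.46% were called higher and 4.88% lower. The rule used this contrast, so the shares are descriptive. In all 71 gains both 24 h libraries lay above both DMSO libraries, and in all 8 losses both lay below. The call itself favours this, so it is no further support. Of all members, called or not, 52.2% lay above and 12.5% below, against 25% and 25.1% of all tested peaks. The gains were mostly moderate: the median log2 change was 0.63, 40 of 71 were at least 1.5-fold and 5 were at least 2-fold. Over all members, the 71 gains included, 72.5% had a log2 change above 0 and the median was 0.20, against 50.2% and 0.00 over all peaks.

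Calls and ranks rested on both libraries of each arm. The number called higher was 38 with DMSO library A left out, 40 with DMSO library B left out, and 45 when either 24 h library was left out. The number called lower was 5 with DMSO library B left out and 4 with 24 h library A left out. The DESeq2 Wald test called 15 higher, with 6, 4, 3, 2 and 0 on chromosomes 14, 17, 2, 9 and 21. Over all peaks it called 93 higher, against 1448 by edgeR. Calls over all peaks also fell on leaving out a DMSO or 24 h library. The chromosome 21 window ranked 48 among bins without DMSO library B (2 gains), 14 without 24 h library A or DMSO library A (4 gains each) and 66 with DESeq2, so its place among the richest bins depends on these choices.

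**Figure D1:**
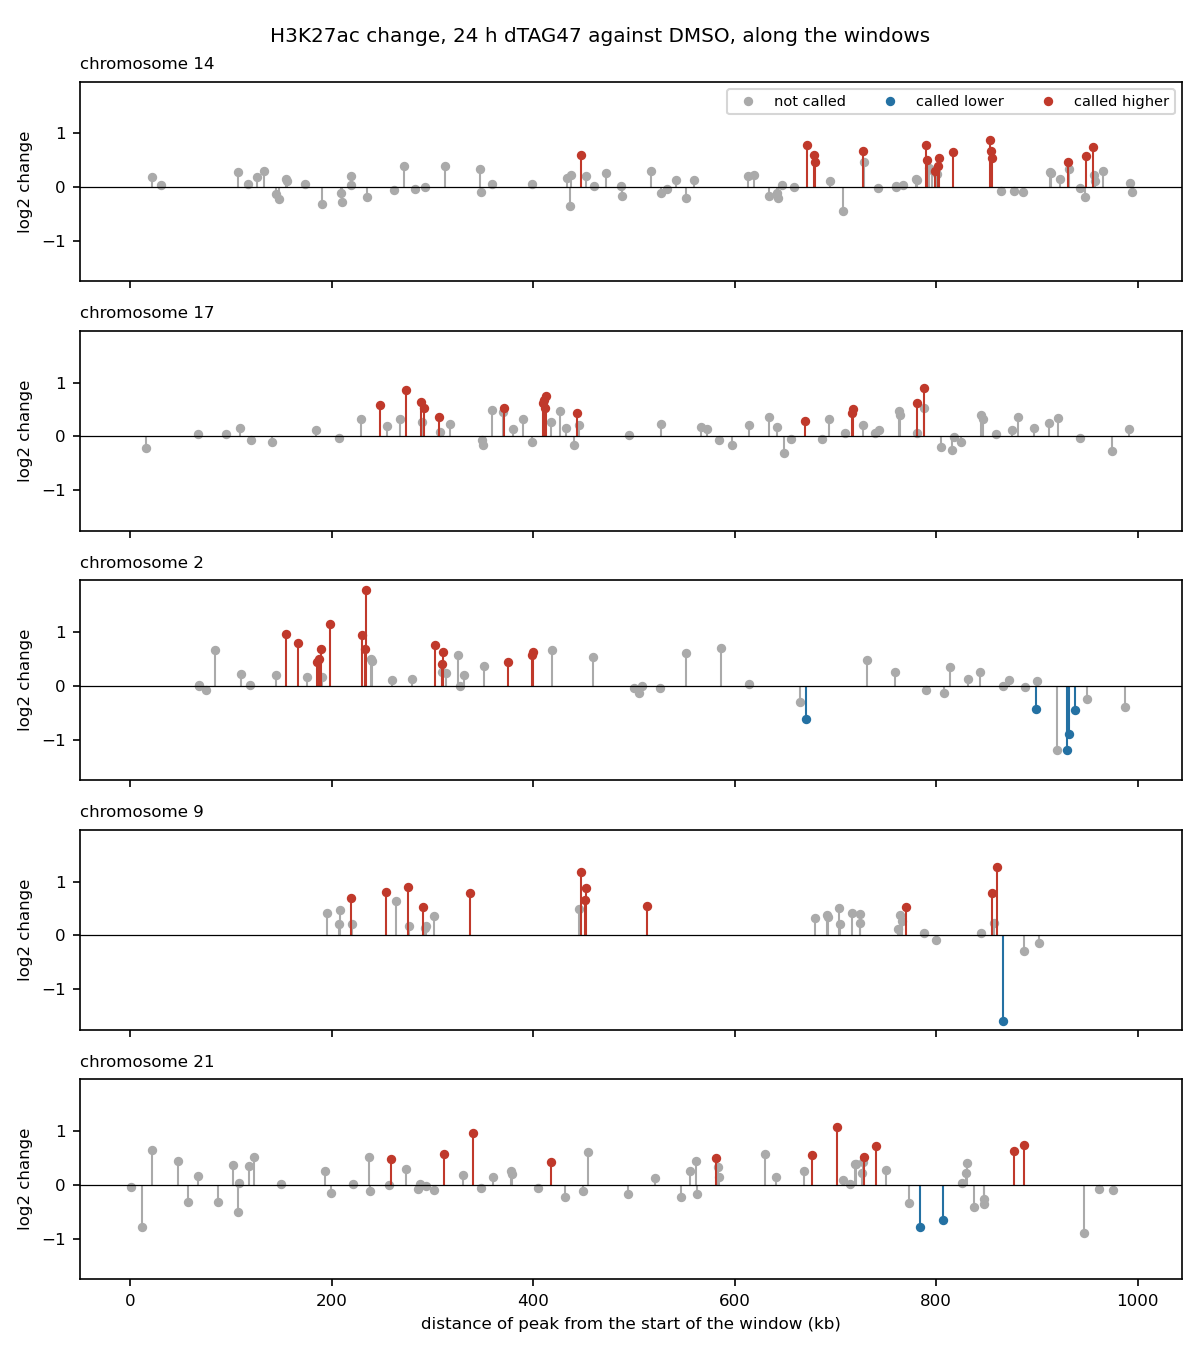
Each panel is 1 window. The x axis is the distance of a peak from the start of the window in kb and the y axis its log2 change in H3K27ac at 24 h of dTAG47 against DMSO, from the edgeR fit, with red for peaks called higher, blue for peaks called lower and grey for the rest. Gains cluster in the later part of the chromosome 14 window and the first part of the chromosome 2 window, whose 5 losses lie in its later part.

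The gains were not spread evenly along the windows. On chromosome 14, 12 of the 17 gains lay in the last 250 kb, which held 34 of the 90 peaks, and none in the first 250 kb, which held 17. On chromosome 17, 10 of 16 lay in the second stretch of 250 kb, with 28 of 78 peaks. On chromosome 2 all 15 gains lay between 241154234 and 241399679, while the last 2 stretches held 10 and 17 peaks, no gain and 5 losses. On chromosome 9, 7 of 12 lay in the second stretch. On chromosome 21 the stretches held 0, 4, 5 and 2. Grouping peaks within 12.5 kb of each other, 54 of the 71 gains shared such a region with another gain, in 18 regions.

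The megabases on either side held fewer gains. The windows were the bins with the most gains, so no flanking bin could hold more, and the shares below are descriptive. The 10 flanking bins held 252 peaks, of which 17 were higher and 6 lower at 24 h. That is 6.75% higher, against 20.6% in the windows and 3.46% over all tested peaks. The bins after chromosome 2 and before chromosome 14 held 5 gains each. At the edges, the peak just before the chromosome 17 window, at 16998908, was called higher (log2 change 0.83, SE 0.26), while the first peak inside, at 17015854, had a log2 change of -0.22 (SE 0.23) and was not called. The last peak inside the chromosome 14 window, at 105994460, had a log2 change of -0.10 (SE 0.11). None of the other first and last peaks inside a window was called. The nearest peak after the chromosome 21 window, at 47052875, was too low to be tested.

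Summed over all counts, the windows differed in their course over time. The windows on chromosomes 14 and 2 were called higher at 2 h, with no call between the treated times. On chromosome 2 the log2 change from 2 h to 24 h was 0.03 (SE 0.02), but 0.06 and called with loess offsets, 0.123 and called with the window moved 250 kb down, and -0.026 with it moved up. Those on chromosomes 9, 17 and 21 were highest at 24 h and were called higher from 4 h to 24 h. The windows on chromosomes 17 and 21 were also called at 2 h, and that on chromosome 21 was not called from 2 h to 24 h. The mean of the chromosome 2 window was highest at 24 h too (1451 CPM, against 1445 at 4 h), so the courses do not fall into separate kinds.

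In the chromosome 14 window the sums were 3437 and 3438 CPM in DMSO, 3777 and 3873 after 2 h, 3886 and 3757 after 4 h, then 3824 and 3804 after 24 h. Every treated library was above both DMSO libraries, and the treated groups overlapped one another. Log2 changes against DMSO were 0.15 (SE 0.02) at 2 h, 0.15 (SE 0.02) at 4 h and 0.15 (SE 0.02) at 24 h.

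In the chromosome 2 window the sums were 1299 and 1299 CPM in DMSO, 1407 and 1438 after 2 h, 1440 and 1449 after 4 h, then 1438 and 1464 after 24 h. Treated libraries were again all above DMSO. Log2 changes were 0.13, 0.15 and 0.16 (SE 0.02 each). From 4 h to 24 h 0 members of this window were called higher and 2 lower by edgeR. At an unadjusted edgeR p under 0.05, 10 were higher and 9 lower, where 2659 and 2966 of the 41791 tested peaks were.

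In the chromosome 9 window the sums were 715 and 711 CPM in DMSO, 748 and 732 after 2 h, 791 and 783 after 4 h, then 934 and 917 after 24 h. The groups did not overlap and followed the time of treatment. Log2 changes against DMSO were 0.05, 0.14 and 0.38 (SE 0.03 each), and the change from 4 h to 24 h was 0.23 (SE 0.03).

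In the chromosome 17 window the sums were 3128 and 3126 CPM in DMSO, 3272 and 3302 after 2 h, 3250 and 3291 after 4 h, then 3467 and 3511 after 24 h. The 2 h and 4 h groups overlapped, and both lay between DMSO and 24 h. Log2 changes against DMSO were 0.07, 0.06 and 0.16 (SE 0.02 each).

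In the chromosome 21 window the sums were 1628 and 1584 CPM in DMSO, 1693 and 1689 after 2 h, 1667 and 1621 after 4 h, then 1753 and 1735 after 24 h. The 4 h libraries overlapped those of DMSO. Log2 changes were 0.07, 0.03 and 0.12 (SE 0.02 each).

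These comparisons share the DMSO libraries and are set side by side only. In the fit over 2650 bins of 1 Mb, all 5 windows were called higher at 24 h (background 8.87%), the contrast on which they were selected, so nothing is read from this. At 2 h the windows on chromosomes 14, 17, 2 and 21 were called (background 4.08%) and at 4 h those on chromosomes 14, 17, 2 and 9 (background 3.74%). From 4 h to 24 h those on chromosomes 17, 9 and 21 were called (background 1.58%) and from 2 h to 24 h those on chromosomes 17 and 9 (background 5.02%). By log2 change the windows were not the highest of the tested bins. At 2 h those on chromosomes 14, 17, 2 and 21 ranked 136, 451, 182 and 435. At 4 h those on chromosomes 14, 17, 2 and 9 ranked 204, 572, 202 and 222. At 24 h the ranks for chromosomes 14, 17, 2, 9 and 21 were 319, 291, 284, 65 and 419. Ranks take no account of the SE. The early calls of the chromosome 17 window ended with loess offsets (log2 changes of 0.021 and 0.035) and on leaving out either DMSO library, at 2 h also without 2 h library B and at 4 h without either 4 h library, with values from 0.054 to 0.074. DESeq2 also ended its call at 4 h (0.067). The chromosome 21 call at 2 h ended with total counts (0.063), loess offsets (0.036) and DESeq2 (0.076), and on leaving out 2 h library B (0.079) or DMSO library B (0.055), and that from 4 h to 24 h with DESeq2 (0.083) and on leaving out 4 h library B (0.067) or either 24 h library (0.079 and 0.093).

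**Figure D2:**
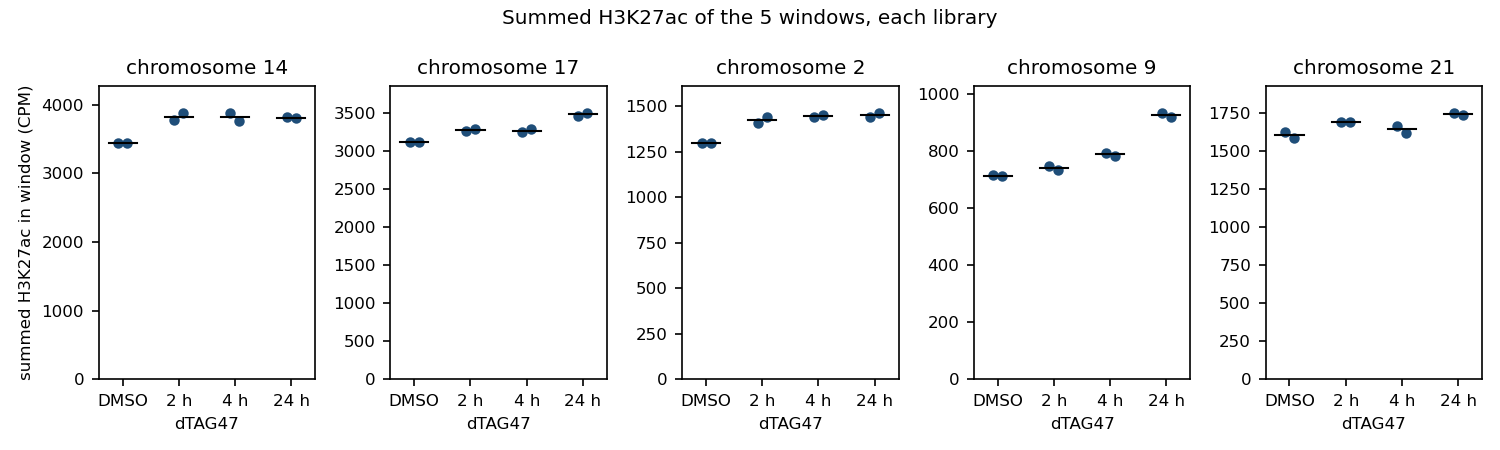
Summed H3K27ac of each window in CPM (y axis, from 0) by group (x axis), 1 panel per window; points are the 2 libraries and bars their mean. Treated libraries lie above DMSO except on chromosome 21, where a 4 h library at 1621 CPM lies below a DMSO library at 1628, and the chromosome 9 window goes from 713 CPM in DMSO to 926 at 24 h.

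The comparison of 4 h with 2 h, which was free of the libraries behind the choice, asks whether the windows were still moving between the early times. No member was called in either direction by edgeR, and none by DESeq2, where 0% of all peaks were called by edgeR and 0 by DESeq2. At an unadjusted p under 0.05 edgeR gave 17 members higher and 16 lower, together 9.57% of members against 6.92% of all tested peaks (3.3% higher and 3.62% lower). DESeq2 gave 1 member in all, and its share over all peaks at this threshold was not counted. The median log2 change of the members was 0.01, against 0.00 over all peaks, and 51.9% of members were above 0. Both 4 h libraries lay above both 2 h libraries in 56 members and below in 59, that is 16.2% and 17.1%, against 17.5% and 17.9% of all peaks. The windows differed in this: 12 of 40 members lay above and 2 below on chromosome 9 (30% and 5%), 4 of 74 above and 19 below on chromosome 21 (5.41% and 25.7%), and 17 of 63 above and 9 below on chromosome 2 (27% and 14.3%). These differences between windows were not tested.

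By window, the median log2 change from 2 h to 4 h was -0.015 on chromosome 14, 0.02 on chromosome 17, 0.03 on chromosome 2, 0.09 on chromosome 9 and -0.02 on chromosome 21. None of the windows was called on its sum, nor was any bin (0%). The difference in summed counts was 0.09 (SE 0.03) on the log2 scale for chromosome 9, where the edgeR adjusted p over all bins was 0.446. For chromosomes 14, 17, 2 and 21 the edgeR adjusted p-values were 0.974, 0.95, 0.867 and 0.643. A p that misses the threshold does not show that the levels were equal. The members with the lowest p were on chromosome 17 at 17875325 to 17875725 (log2 change -0.36, SE 0.11, edgeR adjusted p = 0.533) and on chromosome 2 at 241188886 to 241189286 (0.40, SE 0.14, edgeR adjusted p = 0.565).

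**Figure D3:**
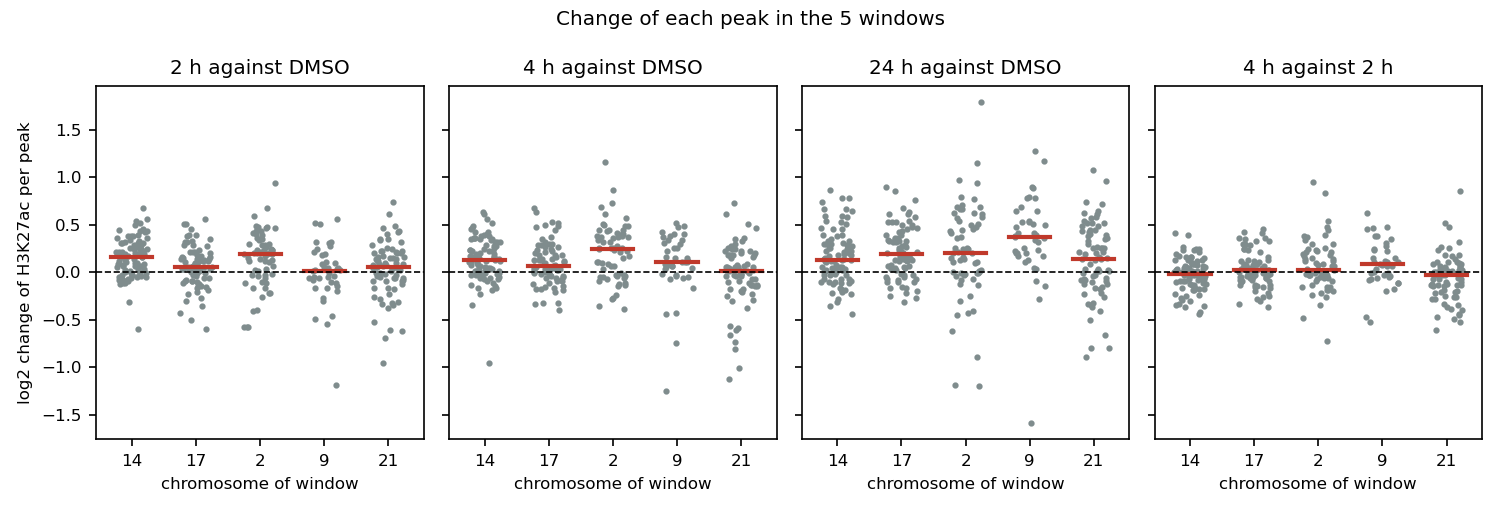
Log2 change in H3K27ac of every member (y axis) by window (x axis, labelled by chromosome) in 4 comparisons, from the edgeR fit; red bars are medians over the members of a window and the dashed line is the median over all tested peaks. Medians at 24 h against DMSO run from 0.13 on chromosome 14 to 0.38 on chromosome 9, while those of 4 h against 2 h run from -0.02 to 0.09.

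Earlier times against DMSO, with the same DMSO libraries, gave fewer calls. At 2 h 7 members were called higher and 1 lower, where 0.194% and 1.03% of all peaks were. At 4 h 16 were higher and 4 lower, where 0.567% and 1.67% of all peaks were. Of the 7 at 2 h, 6 were on chromosome 14. At 4 h, 8 were on chromosome 14, 6 on chromosome 2 and 2 on chromosome 17, with 0 on chromosomes 9 and 21. Where no gain was called, members with an unadjusted edgeR p under 0.05 were counted in both directions. Of the 40 members on chromosome 9, 3 were higher and 2 lower after 2 h, then 8 higher and 2 lower after 4 h. Of the 74 on chromosome 21, 6 were higher and 3 lower after 2 h, but 3 higher and 6 lower after 4 h. Of the 63 on chromosome 2, 11 were higher and 2 lower after 2 h. Of all 41791 tested peaks, 1969 were higher (4.71%) and 2682 lower after 2 h. After 4 h, 2459 of them were higher (5.88%) and 2999 lower. DESeq2 called 0 members higher at either time, and of all peaks 0 at 2 h and 4 at 4 h. Calls over all peaks also fell on leaving out a library of either group compared. The 7 at 2 h became 2 without either DMSO library and 0 without 2 h library B, and the 16 at 4 h became 2 and 4 without DMSO library A and B and 5 without either 4 h library. Of the losses, the 1 at 2 h was lost without 2 h library B and without DMSO library B, and the 4 at 4 h became 1, 0, 1 and 0 without DMSO library A, DMSO library B, 4 h library A and 4 h library B.

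From 4 h to 24 h 11 members were called higher and 3 lower (0.438% and 0.68% of all peaks), and from 2 h to 24 h 30 were higher and 7 lower (1.69% and 2.49%). These share the 24 h libraries that chose the windows. Of the 30, 10 each were on chromosomes 17 and 9, 4 each on chromosomes 2 and 21, and 2 on chromosome 14. From 4 h to 24 h, chromosome 9 had 5, chromosome 17 had 4, chromosome 21 had 2 and chromosomes 14 and 2 had 0. DESeq2 called 0 members higher in both comparisons, and of all peaks 0 from 4 h to 24 h and 12 from 2 h to 24 h. Leaving out a library of either group compared lowered the calls over all peaks too. Fewer members were called higher in both comparisons without any 1 library of the groups compared. In these settings the median log2 change of members was 0.067 to 0.11 from 4 h to 24 h and 0.073 to 0.089 from 2 h to 24 h. Over all peaks the medians were -0.003 to 0.003. Fewer members were called lower from 4 h to 24 h without 24 h library A and from 2 h to 24 h without 2 h library B.

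In the chromosome 14 window, the peak with the largest gain, at 105853572 to 105853972, had 19.9 and 17.6 CPM in DMSO, 25.6 and 27.3 after 2 h, 28.6 and 26.8 after 4 h, then 32.3 and 36.4 after 24 h. The log2 changes against DMSO were 0.50 (SE 0.16) at 2 h, 0.56 (SE 0.16) at 4 h and 0.87 (SE 0.15) at 24 h, of which that at 2 h was not called. Every treated library was above both DMSO libraries.

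The peak at 105671707 to 105672107 had 19.6 and 16.5 CPM in DMSO, 29.2 and 28.6 after 2 h, 19.4 and 26.3 after 4 h, then 30.1 and 32.1 after 24 h. It was called higher at 2 h (log2 change 0.67, SE 0.16) and at 24 h (0.78, SE 0.16). The call at 24 h ended with DESeq2, which called 0 members higher at 2 h. At 4 h 1 library fell among the DMSO values and it was not called, and the 4 h against 2 h log2 change was -0.33 (SE 0.15, edgeR adjusted p = 0.693). The peaks at 105790169 and 105955444 had log2 changes at 24 h of 0.79 (SE 0.15) and 0.74 (SE 0.13). The strongest peak of the window, at 105487073 to 105487473, did not share in this: it had 143 and 146 CPM in DMSO and 149 and 144 at 24 h.

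The stretch with the most gains in this window held 5 of its 17. Between 105780476 and 105803028, 10 peaks lay within 12.5 kb of their neighbours, all 10 had a log2 change above 0 at 24 h and 5 were called higher. Their summed level was 430 and 416 CPM in DMSO, 511 and 518 after 2 h, 520 and 497 after 4 h, then 518 and 534 after 24 h. All treated libraries were above both DMSO libraries, and the treated groups overlapped.

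In the chromosome 17 window, the largest group of gains was a stretch of 18 peaks from 17348963 to 17445371, with 6 gains. Its summed level was 552 and 542 CPM in DMSO, 577 and 578 after 2 h, 583 and 582 after 4 h, then 677 and 700 after 24 h. The early groups lay slightly above DMSO, and both 24 h libraries were well above all others. Within it the peak at 17412550 to 17412950 had 46.7 and 38.6 CPM in DMSO, 53.9 and 55 after 2 h, 54.8 and 61.1 after 4 h, then 74.3 and 69.8 after 24 h (log2 change at 24 h 0.76, SE 0.10). Its neighbour at 17410534 to 17410934 went from 43.3 and 40.3 CPM to 67.7 and 66, with 46, 44.4, 49.1 and 49.1 CPM in between. The largest fitted change of the window, 0.90 (SE 0.26) at 17788387 to 17788787, was at a weak peak with 5.41 and 6.25 CPM in DMSO and 11.3 and 10.5 at 24 h. Its call ended with DESeq2 and without 24 h library A (log2 change 0.84) or either DMSO library (0.80 and 1.01). The strongest peak, at 17584892 to 17585292, had 201 and 204 CPM in DMSO and 202 and 185 at 24 h.

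The chromosome 2 window held the largest gain of all members. The peak at 241233558 to 241233958 had 4.55 and 3.41 CPM in DMSO, 7.43 and 7.89 after 2 h, 8.73 and 9.18 after 4 h, then 14.3 and 13.4 after 24 h. The groups did not overlap and followed time, and the log2 change at 24 h was 1.79 (SE 0.27). From 2 h to 4 h it was 0.22 (SE 0.26, edgeR adjusted p = 0.907). This peak was weak in DMSO, and DESeq2 gave its change at 24 h a wider SE of 0.41. The other named gains, at 241198075, 241154234 and 241229583, were weak peaks with log2 changes of 1.15, 0.97 and 0.94. Each lost its call with DESeq2. The call at 241198075 also ended without 24 h library B (1.09) or either DMSO library (1.05 and 1.27), that at 241154234 without 24 h library A (0.84) or DMSO library B (0.74), and that at 241229583 without 24 h library B (0.83) or either DMSO library (0.91 and 0.97).

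Its strongest peak, at 241375287 to 241375687, was called higher as well: 107 and 114 CPM in DMSO, 128 and 133 after 2 h, 130 and 128 after 4 h, then 153 and 147 after 24 h. The log2 change at 24 h was 0.44 (SE 0.07). A stretch of 9 peaks from 241144212 to 241198475 held 6 gains, and all 9 had a log2 change above 0. Its summed level was 174.5 and 183.8 CPM in DMSO, 207.8 and 216.1 after 2 h, 228.5 and 228.3 after 4 h, then 242.5 and 236.6 after 24 h.

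The 5 losses of the chromosome 2 window lay from 241670819 onwards. The peak at 241930437 to 241930837 had 86.5 and 86.9 CPM in DMSO, 69.1 and 78.7 after 2 h, 66 and 67.3 after 4 h, then 39 and 36.9 after 24 h. The groups did not overlap and went down with time, with a log2 change of -1.19 (SE 0.10) at 24 h and -0.16 (SE 0.09, edgeR adjusted p = 0.773) from 2 h to 4 h. The peak next to it, at 241931982, had 28.2 and 24.4 CPM in DMSO and 12.9 and 15.7 at 24 h (log2 change -0.89), but its 2 h and 4 h libraries, between 23.3 and 26.9 CPM, overlapped DMSO. The other 3 losses, at 241670819, 241899631 and 241937819, had log2 changes of -0.62, -0.43 and -0.44.

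The chromosome 9 window had fewer peaks and the highest share of gains, 30%, and 90% of its 40 peaks had a log2 change above 0 at 24 h. The peak at 92447313 to 92447713 had 5.69 and 7.1 CPM in DMSO, 9.91 and 6.4 after 2 h, 6 and 9.18 after 4 h, then 14.3 and 14.8 after 24 h. The early libraries overlapped DMSO, and the log2 change at 24 h was 1.18 (SE 0.24). The peak at 92860699 to 92861099 had 9.39 and 8.24 CPM in DMSO, 13.2 and 12.2 after 2 h, 14.7 and 10.7 after 4 h, then 20.6 and 22.3 after 24 h. The peaks at 92275542 and 92452118 each had a log2 change of 0.89 at 24 h. Of these 4 peaks, DESeq2 called that at 92860699 and not the others.

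A loss lay 5.93 kb from the start of the gain at 92860699. The peak at 92866630 to 92867030 had 10.8 and 12.8 CPM in DMSO, 5.78 and 4.69 after 2 h, 5.45 and 4.47 after 4 h, then 5.35 and 2.27 after 24 h. All treated libraries were below both DMSO libraries, and the treated groups overlapped. The log2 changes against DMSO were -1.19 (SE 0.27), -1.25 (SE 0.28) and -1.58 (SE 0.28). The log2 changes of the gain were 0.52 (SE 0.23), 0.51 (SE 0.24) and 1.28 (SE 0.20), so at 24 h these neighbours were called in opposite directions. It was the only stretch of neighbouring peaks in the 5 windows that held both a called gain and a called loss at 24 h.

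The strongest peak of the chromosome 9 window, at 92220341 to 92220741, had 81.7 and 95.7 CPM in DMSO and 107 and 96.7 at 24 h, a log2 change of 0.20 (SE 0.08) that was not called, though it was with loess offsets (0.25). The largest gap without a peak in this window was 167 kb.

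The chromosome 21 window had the smallest share of gains, 14.9%. The peak at 46701711 to 46702111 had 9.39 and 8.81 CPM in DMSO, 14.6 and 10 after 2 h, 17.7 and 12.7 after 4 h, then 18.4 and 20 after 24 h (log2 change at 24 h 1.07, SE 0.21). It belonged to a stretch of 10 peaks from 46701711 to 46750668 that all had a log2 change above 0 and of which 3 were called. The stretch summed to 267 and 252 CPM in DMSO, 273 and 289 after 2 h, 276 and 271 after 4 h, then 317 and 326 after 24 h. The gains at 46340229, 46886827 and 46740555 had log2 changes of 0.96, 0.75 and 0.72. DESeq2 called none of the 4. The call at 46886827 also ended without DMSO library B (0.57), and that at 46740555 without 24 h library B (0.46) or DMSO library B (0.57).

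The chromosome 21 window had 2 losses. The peak at 46784240 to 46784640 had 48.1 and 47.7 CPM in DMSO, 49.5 and 46.1 after 2 h, 42.8 and 41.2 after 4 h, then 27.1 and 28.2 after 24 h. The 2 h libraries enclosed the DMSO values, those at 4 h were lower, and the log2 change at 24 h was -0.79 (SE 0.12). The peak at 46807079 had a log2 change of -0.66 (SE 0.22), and its call ended with total counts, with DESeq2 and without any 1 of the DMSO or 24 h libraries (-0.77 to -0.54). The strongest peak, at 46293172 to 46293572, had 109 and 101 CPM in DMSO and 102 and 104 at 24 h.

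**Figure D4:**
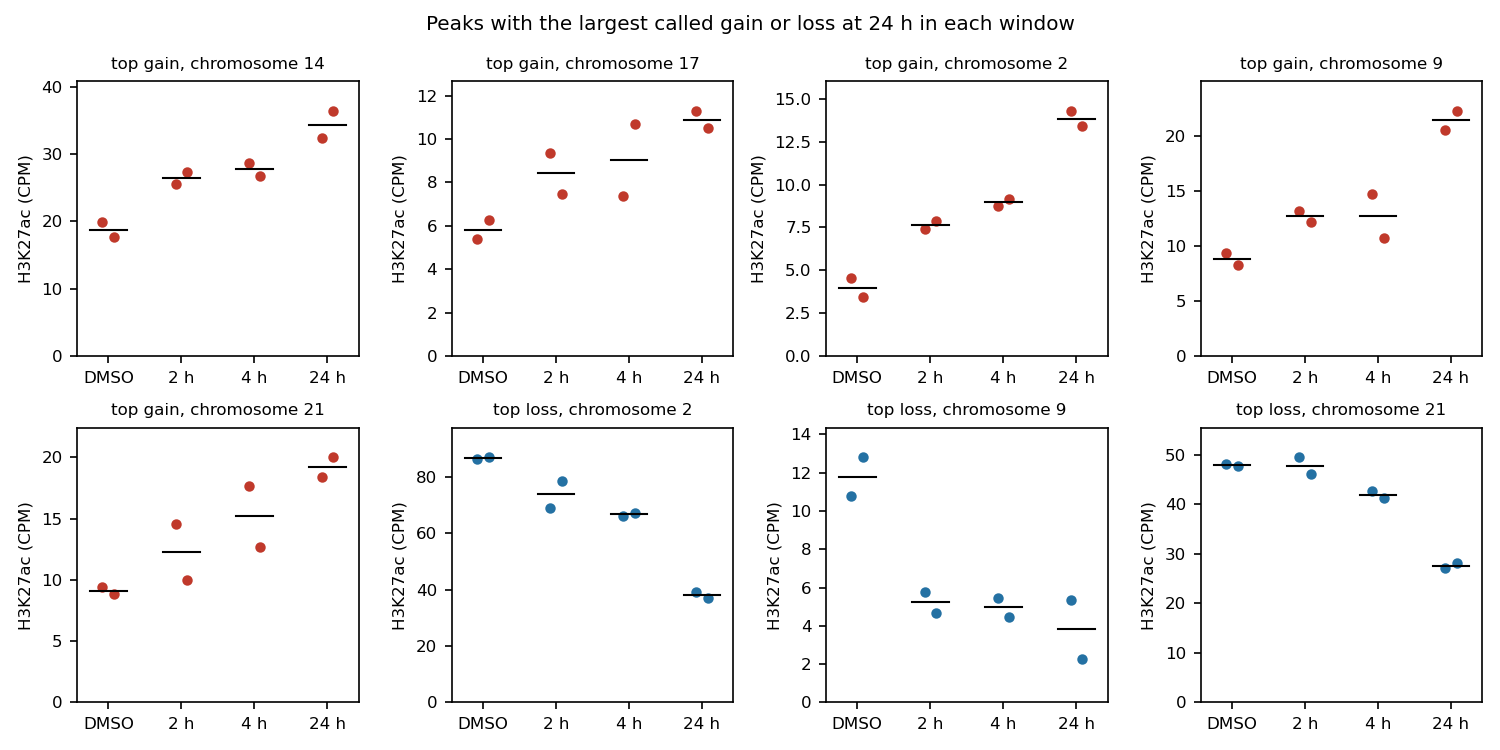
H3K27ac in CPM (y axis, from 0) by group (x axis) for the peak with the largest called gain in each window (red) and the largest called loss in the 3 windows that had one (blue); points are libraries and bars their mean. The chromosome 2 gain goes from 3.98 to 13.8 CPM, while the chromosome 9 loss is at 5.24 CPM at 2 h against 11.8 in DMSO.

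The strongest peak of a window was called higher at 24 h only on chromosome 2. Gains were nonetheless stronger peaks than the rest of their window on chromosome 17 (median level 37.8 against 19.8 CPM), chromosome 2 (27.2 against 11.7 CPM), chromosome 14 (35.4 against 27.9 CPM) and chromosome 21 (19.1 against 14.4 CPM), and not on chromosome 9 (15.6 against 16 CPM). These levels were means over all libraries, so the higher 24 h values of the gains enter them. Over all peaks the medians were 14.53 CPM for gains and 13.65 CPM for the rest. The part of the level in the calls was not tested.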

How the data were processed

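ChIP-seq for H3K27ac was compared in 8 libraries of 4 groups; 2 input libraries were not analysed here. The deposited table holds the authors' raw counts per peak, with one peak set for all libraries. Tools named in the submitters' processing notes were Trimmomatic 0.32, Bowtie2, MACS2, DiffBind and DESeq2, with builds hg19 and dm3; duplicate handling, peak calling and spike-in use are not given in the sources used here. Scaling removes any change shared by every peak. Columns carry A and B and were matched by group only (columns without a group: 0). Libraries held 3540104 to 5001652 counts in peaks; a member held 4 to 1021 counts in a library (median 80).

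Counts were tested in edgeR 4.0.16 (R 4.3.3): filterByExpr (minimum count 10, minimum total 15; 41791 peaks kept, 276 left out), TMM, one robust quasi-likelihood fit of the 4 groups, Benjamini-Hochberg over all peaks, threshold 0.05. Counts summed over 1 Mb bins were fitted the same way (2650 bins tested). Standard errors were derived from the F statistic and rest mostly on the spread shared by peaks (median prior degrees of freedom 182). Scripts were tested on simulated data. The sources do not give the base of the coordinates (0 or 1), and positions are printed as deposited. Positions were taken as hg19, and no hg19 genome was used here, so peaks carry no gene or sequence.

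Named peaks were, in each window, up to 4 higher and 2 lower by log2 change at 24 h among called peaks whose libraries did not overlap DMSO, the strongest peak, and the peaks at the edges. Other peaks named were chosen after their values were seen: the losses beyond 2 in a window, the stretches of neighbouring peaks and the members with the lowest p. Windows, lists and tests were chosen with earlier results of these data known. Genes were placed in the windows from general knowledge; the RefSeq table is on GRCh38. Alternatives were RLE factors (scaling by the median ratio of counts), total counts, loess offsets that follow abundance, no filter, DESeq2 1.42.0, each library left out, windows moved by 250 kb and, added after seeing the data, a block by column letter.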

Additional observations from a re-analysis of the deposited data

How the results depend on the processing

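The columns carry letters and not the replicate numbers of the labels, and nothing says that a letter pairs libraries: deviations of same-letter libraries from their group means correlated at -0.033 to 0.054 over peaks. A replicate block by letter, added after seeing the data, left 71 members higher and gave 9 lower at 24 h against DMSO, and changed no call of a window sum or named peak. RLE factors and leaving out the filter changed no count by over 1.5 times and no call of a window sum. DESeq2 called, of members, 0 higher and 0 lower at 2 h and at 4 h against DMSO, 15 and 4 at 24 h against DMSO, 0 and 1 at 24 h against 4 h, and 0 and 2 at 24 h against 2 h. Leaving out 1 library, where the lone library is assumed to vary like the other groups, gave these ranges. At 2 h against DMSO 0 to 7 members were higher and 0 to 1 lower, at 4 h 2 to 17 and 0 to 4, at 24 h 38 to 72 and 4 to 10, at 24 h against 4 h 2 to 11 and 1 to 4, and at 24 h against 2 h 9 to 31 and 3 to 7. 

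Summed log2 changes follow. With total counts, chromosome 21 at 2 h against DMSO was 0.063 and not called, and chromosome 14 turned to 0.004 (4 h against 2 h), 0.003 (24 h against 4 h) and 0.007 (24 h against 2 h). With loess offsets, calls ended for chromosome 17 at 2 h (0.021) and 4 h (0.035) and chromosome 21 at 2 h (0.036), and were gained for 24 h against 2 h on chromosomes 2 (0.06) and 21 (0.08). The same offsets turned chromosome 14 to 0.019, 0.017 and 0.037 in the comparisons without DMSO and chromosome 17 to 0.014 for 4 h against 2 h. With DESeq2, calls ended for chromosome 21 at 2 h (0.076) and at 24 h against 4 h (0.083) and chromosome 17 at 4 h (0.067). With windows moved 250 kb down, chromosome 21 at 2 h was 0.066 and not called, and calls were gained for chromosome 2 at 24 h against 4 h (0.089) and 2 h (0.123) and chromosome 21 at 24 h against 2 h (0.094). Moved up, chromosome 14 turned to 0.003 for 4 h and for 24 h against 2 h, and chromosome 2 to -0.015 (4 h against 2 h), -0.011 (24 h against 4 h) and -0.026 (24 h against 2 h). Leaving out 1 library gave -0.03 to 0.018, -0.025 to 0.022 and -0.025 to 0.012 for chromosome 14 in the comparisons without DMSO, and -0.007 to 0.02 for chromosome 2 at 24 h against 4 h. For chromosome 17 it gave 0.068 to 0.081 at 2 h and 0.054 to 0.074 at 4 h, and for chromosome 21 0.055 to 0.095 at 2 h and 0.067 to 0.106 at 24 h against 4 h. The cause of these differences was not tested. Of the strongest peaks, that on chromosome 21 turned to 0.019 at 24 h against DMSO with loess offsets and ranged from -0.081 to 0.027 on leaving out 1 library, and that on chromosome 14 ranged from -0.003 to 0.041.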
